A study of Mus musculus with 18 samples.

Results

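Insulin-like growth factor (IGF) genes were followed in side population (SP) and nonSP cells of 3 mouse lung carcinoma lines. The genes were the ligand Igf1, the receptor gene Igf1r, the binding proteins Igfbp2, Igfbp3, Igfbp4, Igfbp5, Igfbp6 and Igfbp7, and the RNA-binding proteins Igf2bp2 and Igf2bp3. Each gene was read by whichever of its probe sets averaged highest across the 18 arrays, a choice that used no difference between groups. A probe set was found for 9 of the 10 genes, among 18193 genes with a probe set in all. Igf2bp2 was not analysed here. A filter that removed the 40% of genes with the lowest mean kept 8 of the 9 and 10916 genes in all. Igfbp2, with a mean of 6.31 on the log2 scale against a filter level of 6.54, fell just below it and was tested in a fit of all 18193 genes without a filter.

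SP cells keep little Hoechst dye because membrane transporters pump it out, and nonSP cells are the other cells of the same culture. The study asked how their transcripts differ in the lines A2C12, betaD5 and cRAF_cMYC. All 3 lines had transformed spontaneously in culture after isolation from lung tumours of mice, aged 8 months, that carried both a c-raf and a c-myc transgene, so every group shares these transgenes. Each of the 6 groups, nonSP and SP of each line, had 3 Affymetrix arrays of total RNA. No treatment separated the groups, and all lines grew in DMEM with 10% fetal calf serum. The labels name neither the promoter of the transgenes nor whether a replicate was a separate culture or sort, so p-values measure only the spread between these samples, which may be technical. Fewer cells of a type and less RNA per cell cannot be told apart in such bulk samples.

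IGF1 and IGF2 are secreted hormones that act through the IGF1 receptor, a tyrosine kinase that signals through IRS adaptors to PI3K and AKT and to the MAPK cascade. Most circulating and tissue IGF is held by IGF binding proteins, which prolong its life, keep it from the receptor or, after cleavage by proteases, release it near the cell surface. IGF2BP proteins have a like name but another role: they bind IGF2 and other mRNAs inside the cell and affect their stability and translation. In lung, IGF1 is made by mesenchymal and myeloid cells, and IGF1R signalling is one of the growth signals of lung carcinoma.

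The arrays did not all follow their labels. The 6 arrays labelled A2C12 stood apart, with a correlation of at most 0.901 to any array of another line. Both arrays of the pair labelled betaD5 1 resembled cRAF_cMYC arrays (r up to 0.984) more than other betaD5 arrays (r up to 0.926), and both arrays of cRAF_cMYC 3 resembled betaD5 arrays (r up to 0.988) more than their own line (r up to 0.933). Lines are therefore named as labelled, and the line differences of the IGF genes and the counts of the gene lists are given with all 9 pairs of SP and nonSP arrays and again without these 2 pairs. The 2 pairs were set aside for their likeness over the whole array, so a difference between betaD5 and cRAF_cMYC in the remaining 7 pairs is not independent of that choice. The 3 lines share an estimate of the spread, so p-values of differences from A2C12 depend on that choice as well. Of the markers of the labelled tissue, 4 of 7 epithelial genes (Krt19 at 10.64 to 12.11, Epcam at 8.55 to 9.11 as line means, Krt8 and Krt18), 2 of 6 alveolar type II genes (Abca3 and Sftpb) and 0 of 3 club cell genes were above the filter. Cdh1, Sftpc and Scgb1a1 were below it over all arrays. Signal above the filter need not mean expression, because Prm1, a gene of another organ, was also above it (7.06 to 7.84 on the arrays). The line means of Krt18, 6.70 to 6.999, lay below the highest Prm1 array, and those of Sftpb, 7.67 to 7.90, lay near it. As line means, Cdh1 was 6.63 in A2C12, 4.54 in betaD5 and 3.92 in cRAF_cMYC, whereas Epcam was lowest in A2C12. The mean of the 7 epithelial genes was 7.66 to 8.06 on A2C12 arrays and 6.73 to 7.62 on those of the other lines. The mean of 5 mesothelial genes was 5.03 to 5.33 on A2C12 arrays and 9.71 to 11.90 on those of betaD5 and cRAF_cMYC. The mean of 10 fibroblast genes was 8.61 to 8.89 in A2C12 and 8.86 to 11.80 in the other lines. Of leukocyte genes 4 of 5 were above the filter (list mean 6.44 to 7.32), and of endothelial genes 1 of 5. Of these, Cd68, Lyz2, Cd3e and the endothelial gene Kdr had line means of 6.63 to 7.70, below the highest Prm1 array. Csf1r was higher, with line means of 8.40 to 10.53. The mesothelial list and, by a smaller margin, the epithelial list separate A2C12 from the other lines without overlap, as do several genes below. The part of these lists in those results was not tested.

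The largest contrast among the genes lay between A2C12 and the other lines (log2 signals after quantile normalization throughout). Igfbp2 signal was high in A2C12 and near background elsewhere. Igf1 was lower than in A2C12 in betaD5 and Igfbp4 in cRAF_cMYC, whereas Igf2bp3 was higher in both. In betaD5 minus A2C12, 3 of the 8 genes above the filter were called at an adjusted p under 0.05 (limma, Benjamini-Hochberg over all genes tested). Igfbp5 and Igf2bp3 were higher and Igf1 was lower, beside 28.2% of all genes called. In cRAF_cMYC minus A2C12, 2 of 8 were called, Igf2bp3 higher and Igfbp4 lower, beside 22.9% of all genes. The median difference of the 8 genes was 0.32 and 0.29 in these comparisons, against 0.029 and 0.020 over all genes tested. Both shares are near the background of lines that differ widely. Between betaD5 and cRAF_cMYC no gene was called, among the 8 or over all genes (0%), and 110 genes had an unadjusted p under 0.05. Without the pairs betaD5 1 and cRAF_cMYC 3, the counts were 5 of 8 beside 45%, 4 of 8 beside 36.1% and 3 of 8 beside 22.2%. On the values as deposited, the median of all genes was 0.72 in betaD5 minus A2C12 and 0.46 in cRAF_cMYC minus A2C12. Differences from A2C12 given below for the deposited values include that shift.

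**Figure D1:**
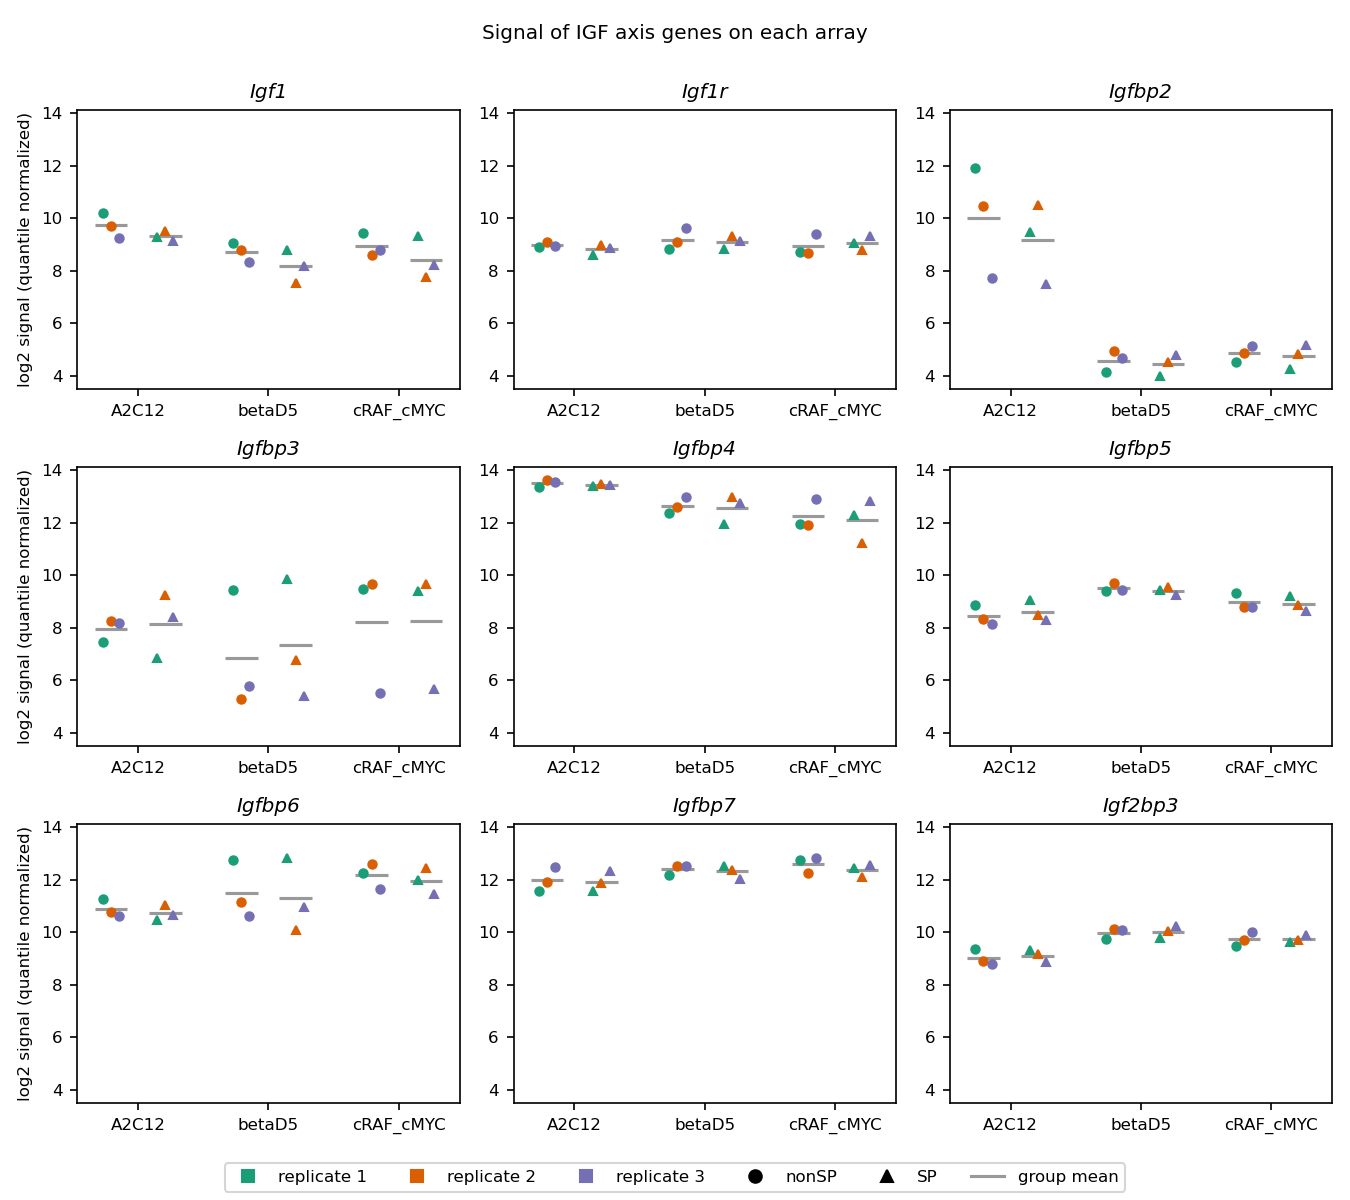
Log2 signal after quantile normalization of the 9 genes on each of 18 arrays, by line; circles are nonSP and triangles SP arrays, colours are replicate numbers, and grey bars are group means of 3 arrays. Igfbp2 lies between 7.51 and 11.92 in A2C12 and at most at 5.19 elsewhere, and Igfbp3 falls into high and low pairs within betaD5 and cRAF_cMYC.

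Upstream sequence is shown for Igf1, Igfbp2 and Igfbp4, each of which was called higher in A2C12 than in at least 1 of the other lines, as the 250 bases before the RefSeq start site (GRCm38.p6), written 5′ to 3′ on the gene's strand. Igf1 lies at chr10:87860861-87861110 (plus strand), the first start site of Igfbp2 at chr1:72824230-72824479 (plus strand) and Igfbp4 at chr11:99040994-99041243 (plus strand). Capitals mark matches, on either strand, to 6 motifs: TATAAA as the TATA box, CCAAT as the box named for its letters, GGGCGG as the GC box, CACGTG as an E-box, TGACTCA as an AP-1 site and TTCCNGGAA as a STAT site. None of the 6 contains another.
Igf1: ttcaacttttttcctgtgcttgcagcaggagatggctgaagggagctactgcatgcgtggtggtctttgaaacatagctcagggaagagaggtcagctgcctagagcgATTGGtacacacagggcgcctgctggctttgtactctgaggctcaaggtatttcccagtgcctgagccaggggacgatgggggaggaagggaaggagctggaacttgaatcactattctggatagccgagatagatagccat
Igfbp2: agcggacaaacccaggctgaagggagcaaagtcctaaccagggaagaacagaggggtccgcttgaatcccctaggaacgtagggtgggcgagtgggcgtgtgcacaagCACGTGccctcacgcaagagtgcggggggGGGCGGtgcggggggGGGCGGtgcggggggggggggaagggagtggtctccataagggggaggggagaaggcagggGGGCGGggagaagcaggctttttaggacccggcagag
Igfbp4: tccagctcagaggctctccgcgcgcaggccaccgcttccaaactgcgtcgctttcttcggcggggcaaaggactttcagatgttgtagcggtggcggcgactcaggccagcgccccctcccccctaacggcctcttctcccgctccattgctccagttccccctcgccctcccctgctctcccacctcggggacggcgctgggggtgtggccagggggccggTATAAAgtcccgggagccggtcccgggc
The Igf1 window holds a CCAAT match that begins 142 bases before the start site. The Igfbp2 window holds 3 GGGCGG matches, at 113, 98 and 37 bases, and a CACGTG match at 142 bases. The Igfbp4 window holds a TATAAA match at 28 bases. No motif was shared by the 3 windows. Of 32851 such windows in the RefSeq table, 33.8% hold CCAAT, 32.7% hold GGGCGG, 12.4% hold TATAAA and 6.02% hold CACGTG, and a match is a description of the letters alone.

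Igf1, the ligand, was probed by 1452014_a_at, and its signal was highest in A2C12. The nonSP arrays of A2C12 read 10.22, 9.72 and 9.27, and the SP arrays 9.30, 9.53 and 9.13. In betaD5 the nonSP arrays read 9.05, 8.79 and 8.35 and the SP arrays 8.80, 7.53 and 8.19. In cRAF_cMYC they read 9.43, 8.59 and 8.79 in nonSP and 9.32, 7.76 and 8.22 in SP. Every betaD5 array lay below every A2C12 array, while cRAF_cMYC overlapped both. Igf1 was 2.11-fold lower in betaD5 than in A2C12 (log2 difference -1.07, SE 0.32, adjusted p = 0.035, limma on 9 pair means). The call was lost when any of 5 of the 9 pairs was left out, with adjusted p up to 0.116 (A2C12 1, 2 and 3 and betaD5 2 and 3, where the differences were -1.24 to -0.93), on the values as deposited, where the difference was -0.37 and the adjusted p 0.277, with the mean of all probe sets (-0.93, adjusted p = 0.0839) and on SP arrays alone (-1.15, adjusted p = 0.0743). The cRAF_cMYC difference from A2C12 was -0.84 (SE 0.32, adjusted p = 0.0921) and betaD5 differed from cRAF_cMYC by -0.23 (SE 0.32, adjusted p = 0.961), so neither of these neighbours was called apart. Without the pair cRAF_cMYC 1 the difference from A2C12 was -1.19 and was called (adjusted p = 0.0247). Without the 2 pairs that resembled the other line, the differences from A2C12 were -1.31 (adjusted p = 0.00476) in betaD5 and -0.75 (adjusted p = 0.0712) in cRAF_cMYC. All 4 Igf1 probe sets read lower in both lines than in A2C12, with differences of -0.75 to -1.07 in betaD5 and -0.30 to -0.84 in cRAF_cMYC.

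Igf1 was also lower in SP than in nonSP cells in each of the 9 pairs. The differences were -0.92, -0.19 and -0.14 in A2C12, -0.25, -1.26 and -0.16 in betaD5, and -0.11, -0.83 and -0.57 in cRAF_cMYC. Their mean was -0.49 with an SD of 0.42 (n = 9 pairs), a fold of 1.41. Among all genes tested, 53 (0.486%) were lower in SP in all 9 pairs. The falls were largest in A2C12 1, betaD5 2, cRAF_cMYC 2 and cRAF_cMYC 3, and SP and nonSP arrays overlapped within every line. Over all genes the difference was not called. The fit of 6 group means gave an SE of 0.22, a 95% interval of -0.97 to -0.016 and an adjusted p of 1 (limma, unadjusted p = 0.0435). With the pair as a block the SE was 0.13, the interval -0.77 to -0.21 and the adjusted p 0.251 (limma, unadjusted p = 0.00256). None of 38 alternatives brought a call (adjusted p 0.109 to 1), and all of them kept the value between -0.64 and -0.38.

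The same direction was read on the other probe sets of Igf1. Probe set 1437401_at was lower in SP in 9 of 9 pairs with a mean of -0.63, and 1434413_at and 1419519_at in 8 of 9 with means of -0.54 and -0.40. The exception on both was betaD5 3, where SP was higher by 0.023 and 0.50. That pair also had the largest SP rise in the 3′ to 5′ signal ratio of the Gapdh control transcript (0.93 on the log2 scale), a measure of RNA and cDNA length. The ratio differed by 0.66 in betaD5 2 and by -0.56 in cRAF_cMYC 2, pairs that both had a large fall of Igf1. With that ratio as a covariate in the blocked fit, the Igf1 difference was -0.49 (adjusted p = 0.174). The part of RNA length in the exception of betaD5 3 was not tested. The transcript Igf1os, listed as antisense to Igf1, was at background, with group means of 4.29 to 4.64.

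**Figure D2:**
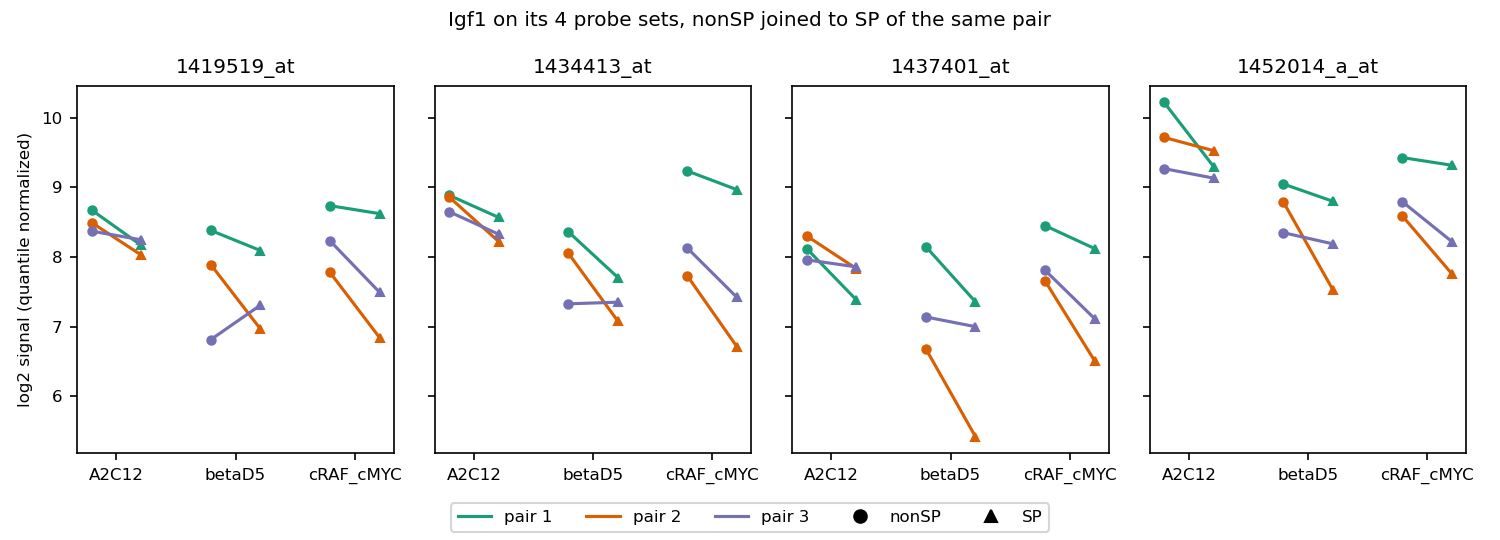
Log2 signal (quantile normalized) of each of the 4 Igf1 probe sets, one per panel; lines join the nonSP array (circle) to the SP array (triangle) of the same line and replicate number. 1452014_a_at and 1437401_at fall in 9 of 9 pairs and the other probe sets in 8 of 9, and the drop in betaD5 2 is -1.26 on 1452014_a_at.

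By the root mean square difference of profiles over the 18 arrays, each gene centred on its own mean, the genes most like Igf1 among 10915 were Ccdc80 (0.36), Selenos (0.38) and H2-D1 (0.38). The SD of Igf1 itself over the arrays was 0.69, so these profiles follow most of its spread. The points share arrays and normalization, and the likeness is a description.

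Igf1r encodes the receptor for IGF1 and IGF2, and its signal (1452982_at) was not called different in any comparison with all pairs. The 18 arrays ranged from 8.60 to 9.62. Group means ran from 8.82 ± 0.20 in A2C12 SP to 9.19 ± 0.40 in betaD5 nonSP (SD, n = 3). The differences were 0.24 (95% interval -0.22 to 0.71) for betaD5 minus A2C12, 0.093 (-0.37 to 0.56) for cRAF_cMYC minus A2C12 and 0.15 (-0.32 to 0.61) for betaD5 minus cRAF_cMYC, with adjusted p of 0.414, 0.783 and 0.961. Without the 2 pairs that resembled the other line they were 0.39 (adjusted p = 0.0607), -0.091 (adjusted p = 0.682) and 0.49 (adjusted p = 0.0653). On the values as deposited the first was 0.95 and called (adjusted p = 0.0154), beside a median of 0.72 over all genes. SP minus nonSP averaged -0.045 (95% interval -0.33 to 0.24, or -0.22 to 0.13 with the pair as a block), and SP was lower in 5 of 9 pairs. On the other 4 probe sets SP was lower in 7 of 9 pairs on 1426565_at and on 1428967_at (means of -0.11 and -0.25), in 5 on 1446303_at (-0.12) and in 3 on 1452108_at (0.0097), so the probe sets gave no common direction.

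Igfbp2 encodes a binding protein that prefers IGF2 and is a marker of many carcinomas. Its only probe set, 1454159_a_at, gave the widest contrast of the 9 genes. A2C12 nonSP arrays read 11.92, 10.46 and 7.72, and SP arrays 9.47, 10.51 and 7.51. The betaD5 arrays lay at 3.99 to 4.96 and the cRAF_cMYC arrays at 4.27 to 5.19. The 9 genes of other organs with a probe set, such as albumin and glucagon, ranged from 3.47 to 7.84 with a median of 4.94, and all but Prm1 stayed at or below 6.38. Igfbp2 was therefore not told from background in betaD5 and cRAF_cMYC. Within A2C12 the replicates were far apart, and pair 3 read lowest in both fractions, within the reach of Prm1. The fit without a filter gave -5.08 (SE 0.69, 33.9-fold lower, adjusted p = 0.00115) for betaD5 minus A2C12, where 17.6% of 18193 genes were called. For cRAF_cMYC minus A2C12 it gave -4.78 (SE 0.69, 27.5-fold lower, adjusted p = 0.00187), where 14.6% were called. Since the lower side is at background, these folds depend on the background level. The calls held in all 11 alternatives that could be run for this gene, with differences from -6.08 to -4.53 and from -5.77 to -4.23. Igfbp2 in betaD5 and cRAF_cMYC differed by -0.30 (adjusted p = 0.981). In the fit without a filter and without the pairs betaD5 1 and cRAF_cMYC 3, the differences from A2C12 were -4.86 (adjusted p = 0.000358) and -4.96 (adjusted p = 0.000405), where 29.6% and 24.7% of all genes were called. Between betaD5 and cRAF_cMYC it was then 0.10 (adjusted p = 0.952), where 14.3% were called.

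In A2C12, where Igfbp2 could be measured, SP minus nonSP was -2.45, 0.051 and -0.21 in pairs 1, 2 and 3. The mean over all lines was -0.37 (SE 0.47, adjusted p = 1, limma without a filter), and without the nonSP array of A2C12 1 it was -0.055. With the pair as a block the SE of the mean was 0.20 (adjusted p = 0.57, limma without a filter). The A2C12 value thus rests on 1 pair.

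Igfbp4 encodes a binding protein that holds IGF back from its receptor until the protease PAPP-A cleaves it. Its signal on 1437405_a_at was high in all lines and highest in A2C12. The A2C12 nonSP arrays read 13.35, 13.64 and 13.55 and the SP arrays 13.41, 13.48 and 13.42. In betaD5 they read 12.37, 12.59 and 12.999 in nonSP and 11.97, 12.99 and 12.74 in SP. In cRAF_cMYC they read 11.95, 11.92 and 12.92 in nonSP and 12.29, 11.22 and 12.84 in SP. No array of either line reached the A2C12 arrays. Igfbp4 was 2.44-fold lower in cRAF_cMYC than in A2C12 (log2 difference -1.29, SE 0.30, adjusted p = 0.0148). The call was just lost without A2C12 2 (adjusted p = 0.0553) or A2C12 3 (adjusted p = 0.0518). In betaD5 the difference was -0.87 (SE 0.30) and missed the threshold (adjusted p = 0.0571). It was called in 7 of 19 alternatives, among them the mean of all probe sets, with -1.54 (adjusted p = 0.0113), but on the values as deposited it was -0.20 (adjusted p = 0.564). Without cRAF_cMYC 2 or cRAF_cMYC 3, pairs of neither line, the betaD5 difference was called at an unchanged -0.87, as only the shared spread differed. All 6 Igfbp4 probe sets read lower in betaD5 (-0.87 to -1.92) and in cRAF_cMYC (-1.29 to -2.56). The probe set used above gave the smallest difference of the 6 in both lines. Without the 2 pairs that resembled the other line, betaD5 lay -0.65 (adjusted p = 0.00492) and cRAF_cMYC -1.63 (adjusted p = 1.99e-05) from A2C12, and betaD5 was 0.99 above cRAF_cMYC (adjusted p = 0.00186). SP minus nonSP averaged -0.10 (95% interval -0.54 to 0.33, or -0.33 to 0.12 with the pair as a block), with SP lower in 6 of 9 pairs. On the other Igfbp4 probe sets SP was lower in 6 to 8 of 9 pairs, with means of -0.17 to -0.078. The profiles most like that of Igfbp4 were those of Fads3 (0.18), Tinagl1 (0.22) and Tmc6 (0.23), against an SD of 0.69 for Igfbp4.

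Igfbp3 followed the pairs rather than the labelled lines, and Igfbp6 did so in the pair betaD5 1, and their upstream sequences are set side by side for that reason, with motifs in capitals as above. Igfbp3 lies at chr11:7213924-7214173 (minus strand) and Igfbp6 at chr15:102143936-102144185 (plus strand) in GRCm38.p6.
Igfbp3: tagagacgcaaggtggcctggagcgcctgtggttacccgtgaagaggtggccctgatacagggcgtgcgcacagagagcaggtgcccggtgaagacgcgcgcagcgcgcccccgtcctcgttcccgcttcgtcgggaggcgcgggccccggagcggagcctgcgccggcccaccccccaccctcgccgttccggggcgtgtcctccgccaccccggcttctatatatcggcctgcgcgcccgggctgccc
Igfbp6: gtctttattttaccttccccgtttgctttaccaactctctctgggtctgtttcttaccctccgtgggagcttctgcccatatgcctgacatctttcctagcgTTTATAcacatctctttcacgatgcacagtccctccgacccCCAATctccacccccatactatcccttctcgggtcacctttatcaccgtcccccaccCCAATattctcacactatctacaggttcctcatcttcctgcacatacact
The Igfbp6 window holds a TATAAA match on the reverse strand at 148 bases and CCAAT matches at 107 and 50 bases, and the Igfbp3 window holds none of the 6 motifs. The GC content was 73.2% for Igfbp3 and 49.6% for Igfbp6.

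Igfbp3 encodes the main carrier of IGF in serum, which also acts on cells without IGF. On 1423062_at the A2C12 nonSP arrays read 7.46, 8.25 and 8.18 and the SP arrays 6.86, 9.25 and 8.40. The betaD5 nonSP arrays read 9.46, 5.29 and 5.79 and the SP arrays 9.86, 6.80 and 5.39. The cRAF_cMYC nonSP arrays read 9.48, 9.66 and 5.51 and the SP arrays 9.42, 9.69 and 5.66. Of the pairs of these lines, 3 were high, betaD5 1, cRAF_cMYC 1 and cRAF_cMYC 2, and 3 were low, betaD5 2, betaD5 3 and cRAF_cMYC 3. The high and low pairs split in the same way as the likeness of the whole arrays, and the second probe set, 1458268_s_at, gave the same split, at 8.22 to 9.18 against 5.17 to 5.83. With all 9 pairs the lines were not called apart: betaD5 minus A2C12 was -0.97 (SE 1.25, adjusted p = 0.599), cRAF_cMYC minus A2C12 0.17 (adjusted p = 0.938) and betaD5 minus cRAF_cMYC -1.14 (adjusted p = 0.961). Without betaD5 1 and cRAF_cMYC 3, Igfbp3 was lower in betaD5 than in A2C12 (log2 difference -2.25, SE 0.37, adjusted p = 0.00068). It was then higher in cRAF_cMYC than in A2C12 by 1.49 (SE 0.37, 2.82-fold, adjusted p = 0.00971), and lower in betaD5 than in cRAF_cMYC (-3.74, SE 0.40, adjusted p = 0.000116). The 4 remaining betaD5 arrays, at 5.29 to 6.80, lay in the range of genes of other organs, the highest of them only through Prm1. Both betaD5 differences therefore depend on the background level, and no fold is given for them. The means over all 9 pairs, which contain the 7, were 7.10 in betaD5, 8.07 in A2C12 and 8.24 in cRAF_cMYC on 1423062_at. The lines were called apart only over the 7 pairs. On 1458268_s_at the order was another, with means of 6.61 in betaD5, 7.79 in A2C12 and 7.52 in cRAF_cMYC. The 2.82-fold is of 1423062_at alone. On 1458268_s_at cRAF_cMYC 1 and 2 lay closer to A2C12, at 8.58 to 8.77 against 6.88 to 8.51.

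SP minus nonSP for Igfbp3 was above 0 in 6 of 9 pairs on 1423062_at and in 8 of 9 on 1458268_s_at, with means of 0.25 and 0.30. The largest values were 1.503 in betaD5 2 and 1.001 in A2C12 2, and the lowest was -0.60 in A2C12 1. The mean was not called (SE 0.81, adjusted p = 1; with the pair as a block SE 0.18, adjusted p = 0.599), and it was below 0 when betaD5 nonSP 2, betaD5 SP 1 or cRAF_cMYC nonSP 3 was left out. In betaD5 2 the Igfbp3 difference of 1.503 stood beside the Igf1 difference of -1.26. The profiles most like Igfbp3 were those of Gpm6b (0.57), Tmem26 (0.61) and C730049O14Rik (0.64), against an SD of 1.72 for Igfbp3.

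Igfbp6 encodes a binding protein with a strong preference for IGF2. On its only probe set, 1417933_at, the A2C12 arrays read 11.25, 10.76 and 10.63 in nonSP and 10.48, 11.06 and 10.66 in SP. The betaD5 arrays read 12.74, 11.15 and 10.64 in nonSP and 12.83, 10.11 and 10.96 in SP. The cRAF_cMYC arrays read 12.25, 12.59 and 11.65 in nonSP and 11.999, 12.47 and 11.45 in SP. The pair betaD5 1 was again among the high cRAF_cMYC pairs, and cRAF_cMYC 3 was the lowest of its line but above betaD5 2 and betaD5 3. With all pairs no line difference of normalized values was called: 0.60 (SE 0.50, adjusted p = 0.402) for betaD5 minus A2C12, 1.26 (adjusted p = 0.103) for cRAF_cMYC minus A2C12 and -0.66 (adjusted p = 0.961) for betaD5 minus cRAF_cMYC. All cRAF_cMYC arrays nevertheless lay above all A2C12 arrays. The same difference of 1.26 was called without betaD5 1 (adjusted p = 0.00475), a pair of neither line, which entered only the shared spread. On the values as deposited both differences from A2C12 were called, at 1.37 (adjusted p = 0.0306) and 1.76 (adjusted p = 0.0193). Without both pairs it was 1.52 (SE 0.16, 2.87-fold, adjusted p = 5.67e-05), and betaD5 was then 3.06-fold below cRAF_cMYC (-1.61, SE 0.17, adjusted p = 0.000119) and at -0.091 from A2C12 (95% interval -0.44 to 0.26). SP minus nonSP averaged -0.18 (95% interval -0.90 to 0.53), with falls of -1.05 in betaD5 2 and -0.77 in A2C12 1. The profiles most like Igfbp6 were those of Selenom (0.28), Ttc28 (0.32) and Slc24a3 (0.34), against an SD of 0.86.

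**Figure D3:**
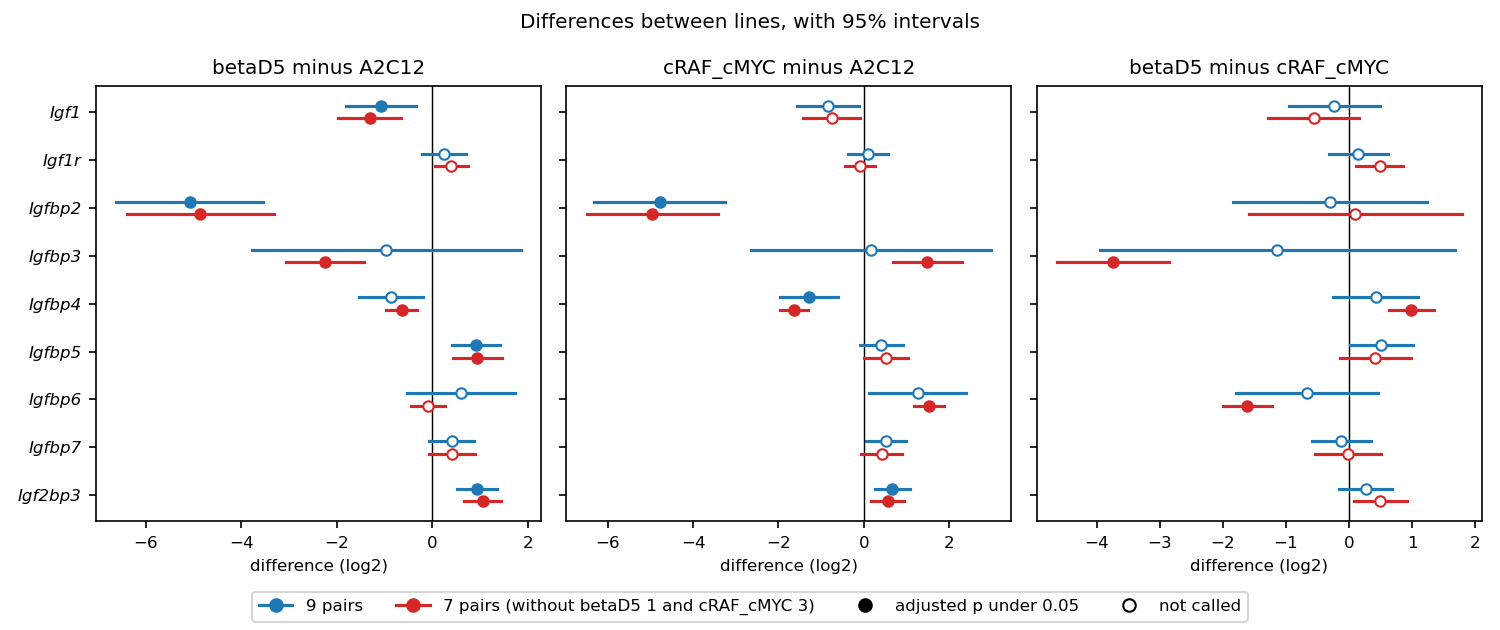
Log2 differences between lines for each gene with 95% intervals, from all 9 pairs (blue) and from 7 pairs without betaD5 1 and cRAF_cMYC 3 (red); filled points have an adjusted p under 0.05 and open points do not. Igfbp2 comes from the fit without a filter; Igfbp3 moves from -1.14 to -3.74 in betaD5 minus cRAF_cMYC when the 2 pairs are left out.

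Igfbp5, a binding protein of extracellular matrix and mesenchymal cells, gave opposite readings on its 2 probe sets. On 1422313_a_at it was higher in betaD5 (mean 9.46, SD 0.15, n = 3 pairs) than in A2C12 (8.54, SD 0.38), a difference of 0.92 (SE 0.22, 1.89-fold, adjusted p = 0.0151), and the arrays did not overlap. The call was lost without A2C12 2, A2C12 3 or betaD5 2 (adjusted p up to 0.0617). The difference of cRAF_cMYC from A2C12 was 0.41 (SE 0.22, adjusted p = 0.22), and it was called as deposited (0.83, adjusted p = 0.0317). Without betaD5 1 and cRAF_cMYC 3 the differences were 0.94 (adjusted p = 0.00716) and 0.52 (adjusted p = 0.101), and betaD5 minus cRAF_cMYC was 0.42 (adjusted p = 0.261). Probe set 1452114_s_at read -1.58 and -1.53 in the same comparisons, but its signal lay in the range of the genes of other organs in every line, at 3.56 to 4.68 in betaD5 and cRAF_cMYC and 4.77 to 7.27 in A2C12. The arrays of A2C12 2, at 6.62 and 7.27, lay in that range only through Prm1. The mean of both probe sets turned the differences to -0.33 and -0.56. The call on 1422313_a_at is therefore given for that probe set alone. SP minus nonSP averaged 0.0018 (95% interval -0.29 to 0.29, or -0.11 to 0.12 with the pair as a block), with pairs from -0.19 to 0.18, the narrowest of the binding proteins.

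Igfbp7, also called angiomodulin, binds IGF weakly and is secreted by vascular and stromal cells. On 1423584_at its level was high on all arrays, 11.56 to 12.84. The line means were 11.96 ± 0.42 in A2C12, 12.37 ± 0.092 in betaD5 and 12.49 ± 0.28 in cRAF_cMYC (SD, n = 3 pairs). Neither line was called apart from A2C12, with differences of 0.40 (SE 0.21, adjusted p = 0.179) and 0.53 (SE 0.21, adjusted p = 0.103), although both were called on the values as deposited (1.13 and 1.002). Over the 7 pairs they were 0.40 (adjusted p = 0.153) and 0.42 (adjusted p = 0.15), and betaD5 minus cRAF_cMYC was -0.021 (adjusted p = 0.959). Without A2C12 3 the cRAF_cMYC difference was 0.75 and was called (adjusted p = 0.0323). Igfbp7 was lower in SP in 8 of 9 pairs, all but betaD5 1, where it was 0.35 higher. Of all genes tested, 444 (4.07%) were lower in at least 8 pairs. The mean SP difference was small, -0.15 (95% interval -0.44 to 0.15, adjusted p = 1; with the pair as a block -0.30 to 0.0092, adjusted p = 0.424). The other probe sets were lower in SP in 6 and 5 of 9 pairs.

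Igf2bp3, an oncofetal RNA-binding protein that is silent in most adult tissues, was higher in both lines than in A2C12. On 1433732_x_at the A2C12 arrays read 9.37, 8.91 and 8.80 in nonSP and 9.31, 9.16 and 8.88 in SP. The betaD5 arrays read 9.74, 10.11 and 10.10 in nonSP and 9.79, 10.05 and 10.24 in SP. The cRAF_cMYC arrays read 9.47, 9.72 and 10.01 in nonSP and 9.63, 9.71 and 9.92 in SP. Neither line overlapped A2C12. Igf2bp3 was 1.91-fold higher in betaD5 (0.93, SE 0.19, adjusted p = 0.00634), and this call held in all 19 alternatives. It was 1.59-fold higher in cRAF_cMYC (0.67, SE 0.19, adjusted p = 0.0302). The second call was lost with the mean of all probe sets (0.48, adjusted p = 0.0658) and without A2C12 2, A2C12 3, cRAF_cMYC 2 or cRAF_cMYC 3 (adjusted p up to 0.111). Without betaD5 1 and cRAF_cMYC 3 the differences from A2C12 were 1.05 (adjusted p = 0.000694) and 0.56 (adjusted p = 0.0272), and betaD5 minus cRAF_cMYC was 0.49 (adjusted p = 0.0883). Of its 6 probe sets 5 read higher in both lines, and 1453957_a_at read -0.11 and -0.38. SP minus nonSP averaged 0.050 (95% interval -0.19 to 0.29), and the 9 pairs lay between -0.093 and 0.25.

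Across the 9 genes, 5 had no overlap between the 6 betaD5 and the 6 A2C12 arrays, against 30.1% of all genes tested. For cRAF_cMYC and A2C12 the count was 4 of 9, against 27.7%, and for betaD5 and cRAF_cMYC it was 0 of 9, against 0.293%. One of these genes in each comparison with A2C12 was Igfbp2, which the background share does not cover because it was below the filter. Among the 8 genes above the filter the counts were 4, 3 and 0.

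No SP difference of any of the genes was called in A2C12, betaD5, cRAF_cMYC or their mean, and 0% of all genes were. At an unadjusted p under 0.05 limma gave 9, 116, 77 and 143 genes of 10916 in these comparisons, and 201, 1159, 862 and 1368 with the pair as a block, which also brought no call. Without the block each count lay below the share of 0.05 that chance alone would give on average. That fit leaves out the pairing, so its SP intervals are wide. With the block and without betaD5 1 and cRAF_cMYC 3, 16 genes (0.147%) were called for SP in betaD5, and none of them was an IGF gene. A test of whether the SP difference itself varied between lines called no gene (8 genes at an unadjusted p under 0.05), and for Igf1 it gave an adjusted p of 1 (limma, unadjusted p = 0.967). The median 95% half-width of the mean SP difference over all genes was 0.26 without and 0.14 with the block. The median SP difference of the 8 genes was -0.074, against -0.00442 over all genes.

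**Figure D4:**
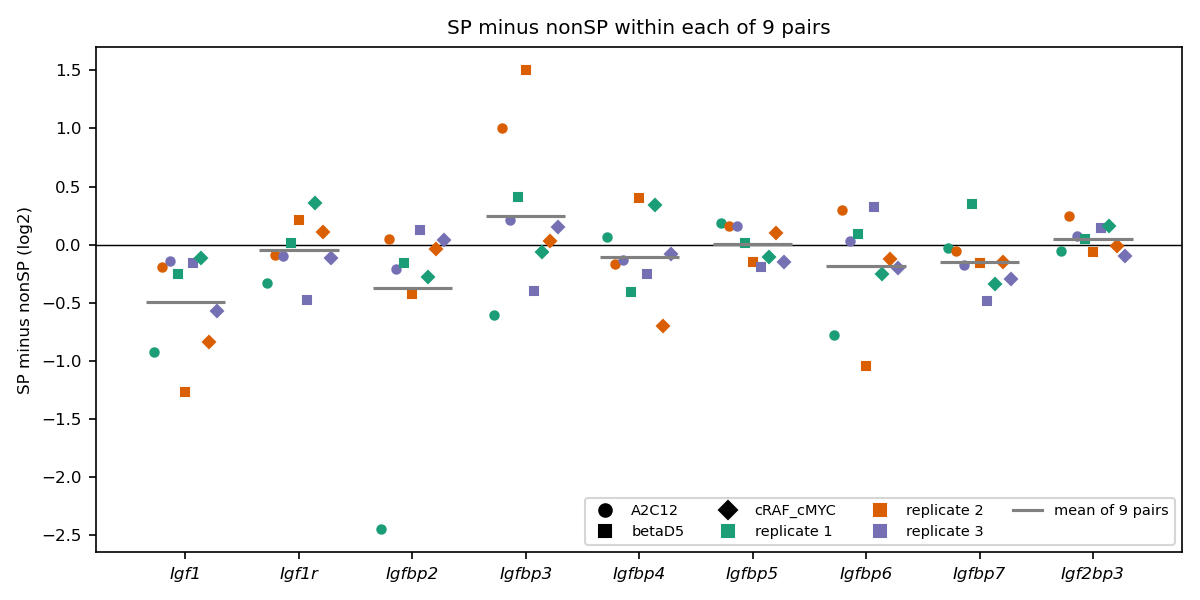
SP minus nonSP log2 difference of each gene in each of the 9 pairs; marker shape gives the line, colour the replicate number and the grey bar the mean of 9 pairs. All 9 Igf1 points lie below 0, Igfbp7 has 8 of 9 below 0, and the Igfbp2 point at -2.45 is A2C12 1.

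Other genes of the pathway were read from 4 lists. Of 9 further ligands, receptors and carriers, 8 had a probe set and 4 were above the filter. Igf2, the other ligand, was the only one called with all pairs, beside 28.2% of all genes in betaD5 minus A2C12 and 22.9% in cRAF_cMYC minus A2C12. It read 10.46 to 12.31 in A2C12, 6.66 to 7.19 in betaD5 and 6.18 to 7.005 in cRAF_cMYC, without overlap. The differences were -4.56 (SE 0.32, adjusted p = 3.6e-05) and -4.79 (SE 0.32, adjusted p = 2.91e-05). The levels outside A2C12 lay within the range of genes of other organs, but in betaD5, and in part in cRAF_cMYC, only through Prm1. The rest of those genes stayed at or below 6.38. Without betaD5 1 and cRAF_cMYC 3 the differences were -4.52 and -4.84 (adjusted p = 3.46e-06 and 3.34e-06). The list then held 2 lower calls in betaD5 and 1 in cRAF_cMYC among its 4 genes, beside 45% and 36.1% of all genes called. Igfbp1, the RefSeq neighbour of Igfbp3 on chromosome 11, had group means of 4.56 to 4.95, in the range of genes of other organs. Igfbp2 and Igfbp5 are neighbours on chromosome 1.

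Among 16 proteases and modulators of binding proteins, 13 were above the filter. In betaD5 minus A2C12, 2 were called higher and 5 lower, and in cRAF_cMYC minus A2C12, 1 higher and 4 lower, with medians of -0.70 and -0.69. Over all genes tested, 15.2% were called higher and 13% lower in the first comparison and 12.4% and 10.5% in the second, with medians of 0.029 and 0.020. Over the 7 pairs, 2 were called higher and 7 lower in betaD5 (median -0.69), and 3 higher and 6 lower in cRAF_cMYC, where the median moved to -0.19. Of all genes, 45% and 36.1% were then called in either direction. Mmp2, a gelatinase that cleaves matrix and several binding proteins, was higher by 2.24 (SE 0.21, adjusted p = 0.000167) and 2.60 (SE 0.21, adjusted p = 8.2e-05). Htra3, a serine protease related to one that cleaves binding proteins, was lower, with differences of -1.40 and -1.39 (adjusted p = 0.000468 and 0.000631). Kazald1, which has a domain like that of the binding proteins, was lower, with differences of -1.86 and -1.63 (adjusted p = 0.00049 and 0.00111). Tmem219, a receptor for IGFBP3, was lower, with differences of -0.95 and -1.02 (adjusted p = 0.00459 and 0.00388).

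Of 34 genes of receptor signalling, 29 were above the filter. In betaD5 minus A2C12, 6 were called higher and 2 lower, and in cRAF_cMYC minus A2C12, 5 and 1, with medians of 0.060 and 0.035. These 8 and 6 of 29 genes stand beside 28.2% and 22.9% of all genes called, so the list held about the background share. Over the 7 pairs the counts were 9 and 2 in betaD5 and 7 and 1 in cRAF_cMYC, beside 45% and 36.1% of all genes. The adaptor Irs1, which the receptor phosphorylates, was higher by 1.84 (SE 0.27, adjusted p = 0.00145) and 1.60 (SE 0.27, adjusted p = 0.00342). Grb10, an imprinted adaptor that restrains the receptor, was higher by 3.35 (SE 0.37, adjusted p = 0.000361) and 2.98 (SE 0.37, adjusted p = 0.000766). Pik3cb, a catalytic subunit of PI3K, was higher by 2.18 and 1.92 (adjusted p = 0.000424 and 0.000918). Rheb, the activator of mTOR, was higher by 0.69 in betaD5 (adjusted p = 0.00293), and Foxo4, a transcription factor that AKT inactivates, was lower in cRAF_cMYC (-1.08, adjusted p = 0.0065).

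Of 9 genes of the let-7 and RNA-binding axis, 3 were above the filter. Igf2bp1, a paralog of Igf2bp3, was higher by 1.55 (SE 0.17, adjusted p = 0.000333) in betaD5 and by 1.36 (SE 0.17, adjusted p = 0.000748) in cRAF_cMYC, the same direction as Igf2bp3. Dicer1, which processes miRNA precursors, was higher by 0.86 in betaD5 (adjusted p = 0.00621). Over the 7 pairs, 2 of the 3 genes were called higher in each line, beside 45% and 36.1% of all genes called in either direction. Between betaD5 and cRAF_cMYC no gene of the 4 lists was called with all pairs. Without the 2 pairs, 1 ligand or receptor gene was lower in betaD5, 1 protease or modulator was higher and 4 were lower, and 5 receptor signalling genes were higher and 4 lower, beside 22.2% of all genes called. Between SP and nonSP no gene of the lists was called in the mean of the lines.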

How the data were processed

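The deposited values, log2 signals for 45101 probe sets on 18 arrays, had been made by the authors with Affymetrix Expression Console, per the submitters' processing notes, with summary method and normalization not given in the sources used here. Array medians of 5.80 to 6.72 differed, so values were quantile normalized between arrays. The 64 control probe sets were left out. Symbols came from the platform annotation, which gave 1 symbol for 34945 probe sets, several for 932 and none for 9160, and 34741 were matched to a current name through RefSeq. R 4.3.3 and limma 3.58.1 (lmFit, eBayes with a trend) were used, two-sided. Lines were compared on 9 means of SP and nonSP arrays (6 residual degrees of freedom), and SP and nonSP on 6 group means (12), with a blocked fit beside it. Same-numbered arrays of a line deviated together (r 0.425 to 0.954 in all 9 pairs), so the numbers were taken as pairs, although betaD5 3 correlated better with another number (0.680 against 0.602). In simulated data, 200 of 10916 genes were changed by 1 on the log2 scale. Of these 200, 40% were recovered in betaD5 minus A2C12 and 92% for the mean SP difference (98.5% with the block). Far more genes were called between the real lines, so the 40% need not hold for them. Arrays hold no counts, and precision is set by how many there are. All named genes were the 10 genes studied, up to 4 called genes of each pathway list with the smallest p, and the 3 closest profiles for genes above the filter whose line means differed by over 1. The genes and lists were chosen with earlier results of these data known. Alternatives were the scaling, the filter, the mean of probe sets, no trend, single fractions, the block, and leaving out arrays or pairs.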

Additional observations from a re-analysis of the deposited data

How the results depend on the processing

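With 3 arrays a group, precision is limited, and signals at background bound every fold against them. For betaD5 minus A2C12, 3076 genes were called with all pairs (53.9% higher), against 6068 on the values as deposited (96% higher, median of all genes 0.72), 4908 without the pairs betaD5 1 and cRAF_cMYC 3, and 5378 without these pairs and without a filter, and of the IGF genes 3 were called, against 5, 5 and 6. Leaving out 1 pair gave 1761 to 3594 genes and 1 to 4 IGF genes. For cRAF_cMYC minus A2C12, 2505 genes were called (54.2% higher), against 3105 as deposited (91.2% higher, median 0.46), 2141 with arrays centred on their medians (66.7% higher), 3942 without the 2 pairs and 4501 without them and without a filter, and of the IGF genes 2, against 5 as deposited, 4 and 5. Leaving out 1 pair gave 1464 to 2932 genes and 0 to 3 IGF genes, with 0 without A2C12 2. For betaD5 minus cRAF_cMYC, 0 genes were called with all pairs and 2419 and 2596 without the 2 pairs, with and without the filter, and 3 IGF genes in both.

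The replicate block, which pairs SP and nonSP arrays, called no IGF gene and changed no call of one. It called genes for SP in betaD5 alone, 16 without the 2 pairs and 21 with the Gapdh ratio as a covariate, and, with 1 pair left out, 0 to 71 there and 0 to 8 for the mean of the lines, against 0 without the block.

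None of the values below that changed sign was called. On the values as deposited, Igf1 in betaD5 minus cRAF_cMYC was 0.019 and Igfbp7 0.13. Without the 2 pairs, Igf1r in cRAF_cMYC minus A2C12 was -0.091 (-0.054 on nonSP arrays), Igfbp6 in betaD5 minus A2C12 -0.091 and Igfbp2 in betaD5 minus cRAF_cMYC 0.10. With the mean of probe sets, Igfbp3 in cRAF_cMYC minus A2C12 was -0.052 and Igfbp5 -0.33 and -0.56 in betaD5 and cRAF_cMYC minus A2C12. For SP minus nonSP, Igf1r was 0.011 with centred arrays, and 0.020 with the block without betaD5 3. Igfbp5 was -0.00227 without the 2 pairs with or without the block, and with the block -0.000879 without A2C12 1, -0.019 without betaD5 1 and -0.024 without cRAF_cMYC 2. Leaving out 1 pair gave -0.49 to 0.11 for Igf1 in betaD5 minus cRAF_cMYC, -0.091 to 0.23 for Igf1r and -0.55 to 1.49 for Igfbp3 in cRAF_cMYC minus A2C12, and -0.091 to 0.99 for Igfbp6 in betaD5 minus A2C12. Leaving out 1 array gave mean SP differences of -0.10 to 0.036 for Igf1r, -0.20 to 0.68 for Igfbp3, -0.22 to 0.046 for Igfbp4, -0.072 to 0.072 for Igfbp5 and -0.44 to 0.021 for Igfbp6. The causes were not tested, other than that the fits without pairs hold fewer samples.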
